A study of Mus musculus with 6 samples.

Results

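The miR-15/16 family and its close relatives miR-103 and miR-107 were followed in embryoid bodies, floating clusters of mouse embryonic stem cells that differentiate into many cell types. The members were taken by name: mmu-miR-15a, mmu-miR-15b, mmu-miR-16, mmu-miR-195, mmu-miR-497, mmu-miR-103 and mmu-miR-107, 7 of the 334 mouse microRNA probes of the array. All 7 were on the array and passed the filter on dim probes. The study compared embryoid bodies of day 7 whose cells carried human BRCA1, a DNA repair protein, in 3 forms: with the missense change R1699Q (RQ), with the missense change M1652I (MI) or as wild type (WT). Both changes lie in the C-terminal BRCT repeats of the protein. All groups shared the strain background 129S7/SvEv Brd-Hprt b-m2, and 2 biological replicates were hybridised for each group, on 6 arrays. How many clones each line stands for, and whether the replicates were grown as separate cultures, is not in the labels. The p-values therefore measure the spread between these arrays, part of which may be technical.

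MicroRNAs pair through bases 2 to 8 of their 5′ end, the seed, with sites in target messenger RNAs and lower their output. Members of the miR-15/16 family share a seed and are known to lower cyclins, other drivers of the cell cycle and the survival protein BCL2. The human miR-15a and miR-16 locus is often deleted in chronic lymphocytic leukaemia. miR-195 rises in mouse heart after birth, when heart muscle cells stop dividing. miR-103 and miR-107 lie in introns of pantothenate kinase genes and are known to act on insulin sensitivity in mice and on Dicer, the enzyme that matures microRNAs.

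The mature sequences are shown because the shared seed defines the family and because the probes tell the members apart only by the remaining bases. They are those of RefSeq (GRCm38.p6), 5′ to 3′, with the seed in capitals.
miR-15a: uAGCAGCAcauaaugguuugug
miR-15b: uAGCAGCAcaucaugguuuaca
miR-16: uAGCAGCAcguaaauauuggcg
miR-195: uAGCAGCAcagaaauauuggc
miR-497: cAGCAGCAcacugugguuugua
miR-103: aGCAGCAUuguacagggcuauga
miR-107: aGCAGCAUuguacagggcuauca
The first 5 share the seed AGCAGCA, which 10 of 1679 mouse mature sequences in the table have. miR-103 and miR-107 share the seed GCAGCAU, held by these 2 sequences alone, in which the letters GCAGCA of the family seed stand 1 base nearer the 5′ end. Counted from 1 at the 5′ end, miR-103 and miR-107 differ by the substitution G22C. miR-16 and miR-195 differ by G10A and U11G over the 21 bases they share. No other tested probe lay within 2 base differences of a member, and whether one member's RNA bound the other's probe in these pairs was not tested.

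The members come from clusters and introns on several chromosomes (positions in GRCm38.p6). miR-15a lies at chr14:61632075-61632096 and one copy of miR-16 at chr14:61631936-61631957, both on the minus strand within Dleu2, a long noncoding RNA gene. miR-15b lies at chr3:69009775-69009796 and the other copy of miR-16 at chr3:69009918-69009939, both on the plus strand within Smc4, which encodes a condensin subunit. miR-497 at chr11:70234730-70234751 and miR-195 at chr11:70235062-70235082 stand side by side on the plus strand and overlap no other gene in the annotation. miR-103 has a copy at chr11:35782447-35782469 within Pank3 and one at chr2:131288103-131288125 within Pank2. miR-107 lies at chr19:34820700-34820722 within Pank1. Since miR-16 and miR-103 each have 2 loci with the same mature sequence, 1 probe reads the sum of both.

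Each array carried 2 colours, with the group's own RNA in Cy3 and, per the labels, RNA of wild-type embryoid bodies in Cy5 on all 6 arrays. No dye swap was made, so a dye effect on a probe stays in each ratio and is removed only in differences between groups. The reference did not look like the WT samples. The 7 measured embryonic stem cell microRNAs had a summed net Cy3 signal of 61952 to 64737 on RQ arrays, 45578 to 58697 on MI arrays and 46098 to 81761 on WT arrays. In Cy5 the same 7 summed to between 139.2 and 213.9 on the 6 arrays. Of these 7, 3 were called lower in RQ than in WT (miR-294, miR-295 and miR-302d), against 13.9% of all tested probes (limma, loess, adjusted p below 0.05). In MI, 3 were called lower than in WT (miR-302, miR-302d and miR-367), against 6.46%. In RQ minus MI, miR-302, miR-302d and miR-367 were called higher and miR-294 lower, against 3.06% and 7.82% of tested probes. The 4 measured muscle and heart microRNAs summed to 2399 to 3293 on RQ arrays, 1950 to 2801 on MI arrays and 1192 to 1209 on WT arrays, and the heart marker miR-208 did not rise above background in Cy3 on any array. The 5 fibroblast and mesenchymal microRNAs, which could come from feeder cells, summed to 3887 to 4287 in RQ, 2533 to 3255 in MI and 1940 to 2820 in WT. These sums are unscaled, and after loess 2 of the 5 were called lower and none higher in RQ than in WT, and 1 higher and none lower in MI. Of the 4 muscle and heart microRNAs, 1 was called lower and none higher in RQ, and 1 higher and none lower in MI. In bulk RNA, fewer cells of a type and less RNA per cell cannot be told apart, and the part of these cell types in the results on the family was not tested. All arrays came from 1 slide and 1 scan. The RQ and MI arrays shared one row of that slide and the WT arrays had the other, so slide row and mutant against WT cannot be told apart, while RQ and MI share a row.

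All spots of all 7 members were well above background in both channels on the 6 arrays, and none was saturated. Each probe had 4 spots, and the values below are the mean intensity minus the local background over the spots not marked as outliers. The scanner had marked a spot of a member on 4 occasions.

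The signal of mmu-miR-16 in Cy3 was 1209 and 1118 units on RQ arrays, 681 and 820 on MI arrays, and 2108 and 1186 on WT arrays. The MI values were the lowest, and the WT arrays stood far apart from each other. For mmu-miR-15b, from the second miR-16 locus, the signal was 804 and 764 in RQ, 488 and 607 in MI, and 1218 and 646 in WT. For mmu-miR-15a it was 190 and 193.5 in RQ, 136 and 147 in MI, and 275 and 179 in WT. In these 3 microRNAs both MI arrays lay below all RQ and WT arrays, and the RQ arrays lay between the WT arrays except for miR-16, where 1 RQ array was below both.

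Without scaling, miR-195 gave 403 and 393.5 units in RQ, 226 and 305.5 in MI, and 488 and 300 in WT. Its cluster neighbour miR-497 was dim, at 125 and 138 in RQ, 104 and 121 in MI, and 106 and 76.8 in WT. On the same arrays the negative control spots had a median net Cy3 signal of 54.0 and 61.0 in RQ, 37.8 and 42.5 in MI, and 34.3 and 28.2 in WT. The miR-497 signal was 2.31 and 2.26 times the median negative control in RQ, 2.74 and 2.86 in MI and 3.09 and 2.72 in WT. As a multiple of that background it was lowest in RQ, although its raw signal was highest there. As a difference from that median it was 70.5 and 76.75 units in RQ, 65.95 and 78.9 in MI, and 71.7 and 48.55 in WT, and the groups overlapped.

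For mmu-miR-103 the Cy3 signal was 991.5 and 937 in RQ, 1034.5 and 1187 in MI, and 1329 and 1040 in WT. miR-107 gave 975.5 and 923 in RQ, 985.5 and 1192.5 in MI, and 1311 and 1019 in WT. The RQ arrays were the lowest for both, by a small margin. Over the 227 probes above background in Cy3 on all arrays, the median ratio of unscaled signal was 1.30 for RQ over WT and 0.990 for MI over WT. Against those medians, the unscaled RQ over WT ratio was 0.814 for miR-103, 0.815 for miR-107, 0.842 for miR-15b, 0.845 for miR-15a and 0.707 for miR-16. It was 1.01 for miR-195 and 1.44 for miR-497. The unscaled MI over WT ratio was 0.456 for miR-16, 0.588 for miR-15b, 0.623 for miR-15a and 0.675 for miR-195, and it was 0.938 for miR-103, 0.935 for miR-107 and 1.23 for miR-497. The negative control signal, higher in RQ than in WT, was not subtracted from these signals. Such a background weighs more in dim probes, and the 227 probes were not matched to the members in brightness.

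**Figure D1:**
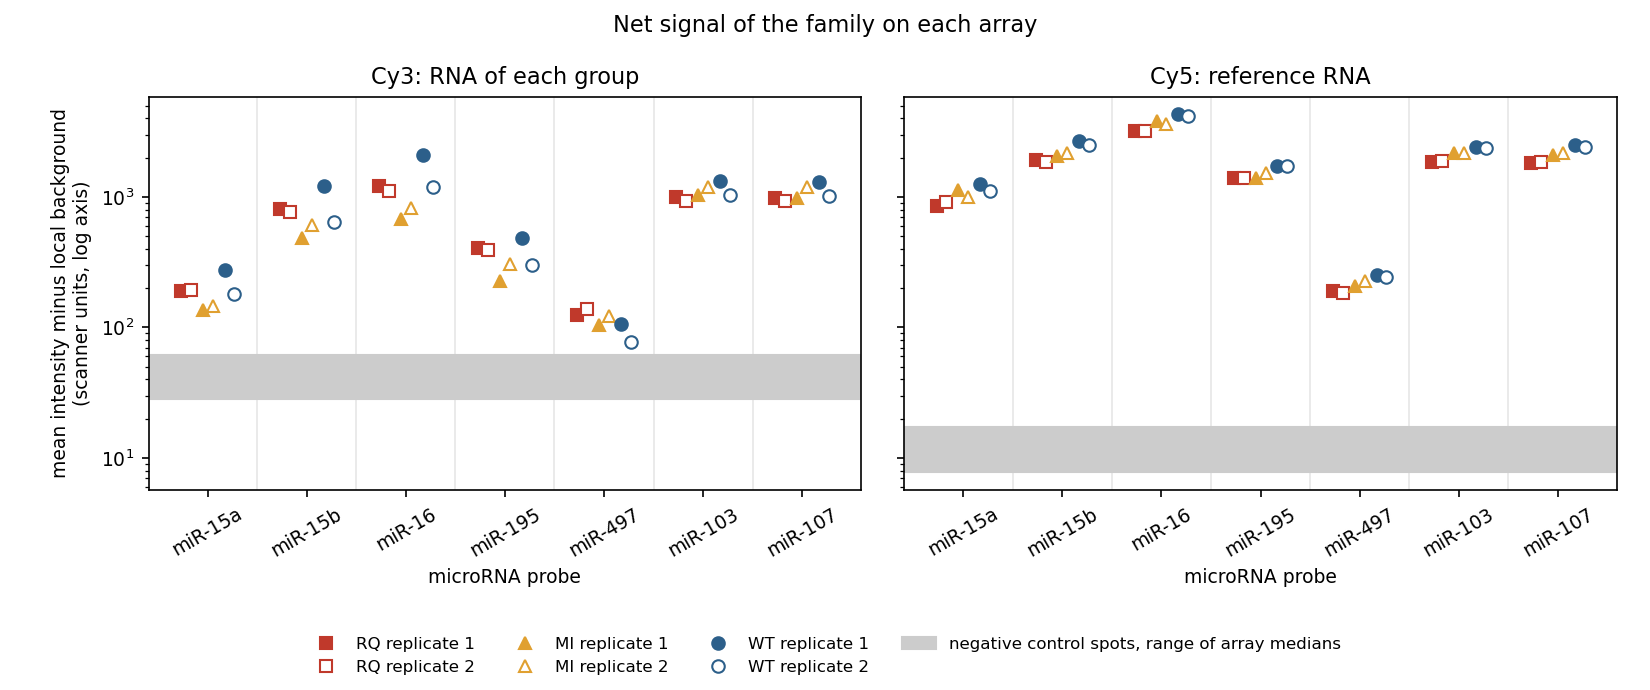
Net signal (mean intensity minus local background, log axis) of the 7 microRNAs in Cy3 (left) and in the Cy5 reference channel (right), with 1 point per array and the grey band giving the range of the negative control medians over the arrays. In Cy3, miR-16 was lowest on the MI arrays (681 and 820) and miR-497 lay closest to the grey band.

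The first comparison asked how embryoid bodies with the R1699Q change differed from WT in this family. After loess normalisation, 4 of the 7 members were called lower in RQ: miR-103, miR-107, miR-16 and miR-15b, by 1.16 to 1.40 on the log2 scale. The dim miR-497 was called higher, by 0.42, so that 5 of the 7 were called in all. A microRNA was called where its limma p-value, adjusted by Benjamini-Hochberg over all tested probes, was below 0.05, and 21.4% of the tested probes met this, with 13.9% lower and 7.48% higher. The loess ratios of 5 members were lower on both RQ arrays than on both WT arrays, as in 29.6% of all tested probes, and those of miR-497 were higher, as in 33% of them. The median change of the 7 members was -1.16 against 0.035 over all tested probes with loess, -0.65 against -0.096 on Cy3 alone and -0.16 against 0.10 with median centring.

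The loess log2 ratio of Cy3 over Cy5 for miR-103 was -1.17 and -0.95 in RQ and 0.14 and 0.54 in WT. The groups did not overlap, and the change was -1.40 ± 0.23 (SE, 2 arrays a group), or 0.379 times the WT ratio, with an adjusted p of 0.0112. For miR-107, whose probe differs from that of miR-103 at 1 base, the ratio was -1.17 and -0.94 in RQ and 0.07 and 0.52 in WT, a change of -1.35 ± 0.24 with an adjusted p of 0.0121. After loess, the ratios of both microRNAs lay below 0 on the RQ arrays and above 0 on the WT arrays. With median centring they lay below 0 on the WT arrays as well. The WT ratios were then -1.16 and -1.32 for miR-103 and -1.22 and -1.38 for miR-107, so the side of 0 depends on the scaling.

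Among the members with the family seed, miR-16 had loess ratios of -1.69 and -1.60 in RQ and -0.47 on both WT arrays, a change of -1.17 ± 0.25 with an adjusted p of 0.0241. For miR-15b the ratios were -1.50 and -1.18 in RQ and -0.14 and -0.22 in WT, a change of -1.16 ± 0.15 with an adjusted p of 0.00808. Both were lower on each RQ array than on each WT array. miR-15a, which shares a transcript with one miR-16 copy, had -2.52 and -2.55 in RQ and -1.99 and -2.26 in WT. Its groups did not overlap either, but the change of -0.40 ± 0.14 did not pass the test (adjusted p 0.0899). miR-195 had -1.88 and -1.64 in RQ and -1.23 and -1.66 in WT, which overlapped, with a change of -0.31 ± 0.17 and an adjusted p of 0.258.

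For miR-497 the change had the opposite sign to that of its cluster neighbour miR-195, which was not called. Its loess ratio was -1.14 and -1.19 in RQ and -1.53 and -1.63 in WT, and the change of 0.42 ± 0.10 had an adjusted p of 0.0427. Both RQ arrays were above both WT arrays. Its Cy3 signal was within 3.09 times the median negative control on every array, and the negative controls themselves were brighter in RQ than in WT. On Cy3 alone the miR-497 difference was -0.038 ± 0.089 (adjusted p 0.774), and of 5 scalings loess alone called it. Leaving out any one of the 6 arrays ended the call, with adjusted p between 0.0519 and 0.212.

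The calls of the bright members depended on the scaling. With each array's log ratios centred on their median in place of loess, 0 of the 7 members were called in RQ minus WT by limma, 1 (miR-497, higher) had an unadjusted p below 0.05, and 22.8% of all tested probes were called. miR-103 then changed by -0.21 ± 0.11 (adjusted p 0.215), miR-107 by -0.16 ± 0.11, miR-16 by -0.32 ± 0.20 and miR-15b by -0.0024 ± 0.19. The loess curve had moved the ratios of these 4 microRNAs up by 0.84 to 1.90 on WT arrays, by 0.90 to 1.47 on MI arrays and by 0.19 to 0.59 on RQ arrays relative to median centring. On the Cy3 channel alone, quantile normalised with the reference left out, 4 of the 7 were called lower against 15.3% of all probes: miR-103 by -0.81 ± 0.10 (adjusted p 0.00966), miR-107 by -0.78 ± 0.10 (0.0104), miR-16 by -1.04 ± 0.22 (0.0286) and miR-15a by -0.49 ± 0.12 (0.0429). miR-15b was then at -0.65 ± 0.20 and not called (adjusted p 0.0787). After loess, the miR-16 call was lost without any one of the 4 RQ and WT arrays. Without RQ replicate 1 no member kept its loess call, and few of all tested probes did. Arrays were left out with loess alone, so the Cy3 calls were not checked in this way.

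Over the 5 scalings (loess, loess fitted on probes above background in both channels, Cy3 alone, the scanner's processed signals and median centring), miR-103 and miR-107 were called lower in RQ in 3, and miR-15a, miR-15b and miR-16 in 2 each. All 5 of these microRNAs had a negative change under each of the 5, although that of miR-15b was -0.0024 with median centring. The median change of all tested probes itself moved with the scaling, to -0.12 with loess on the bright probes, -0.10 on Cy3 alone and -0.26 with the processed signals, against 0.035 with loess. Relative to that median, the RQ minus WT change ranged over the scalings from -1.56 to -0.31 for miR-103, from -1.54 to -0.26 for miR-107, from -1.20 to -0.42 for miR-16, from -1.30 to -0.10 for miR-15b and from -0.69 to -0.27 for miR-15a. For miR-195 it ranged from -0.43 to -0.075, and for miR-497 from 0.059 to 0.42. Over all probes, 34.9% of calls were higher in RQ with loess, 70.1% with median centring and 23.3% with loess on the bright probes.

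**Figure D2:**
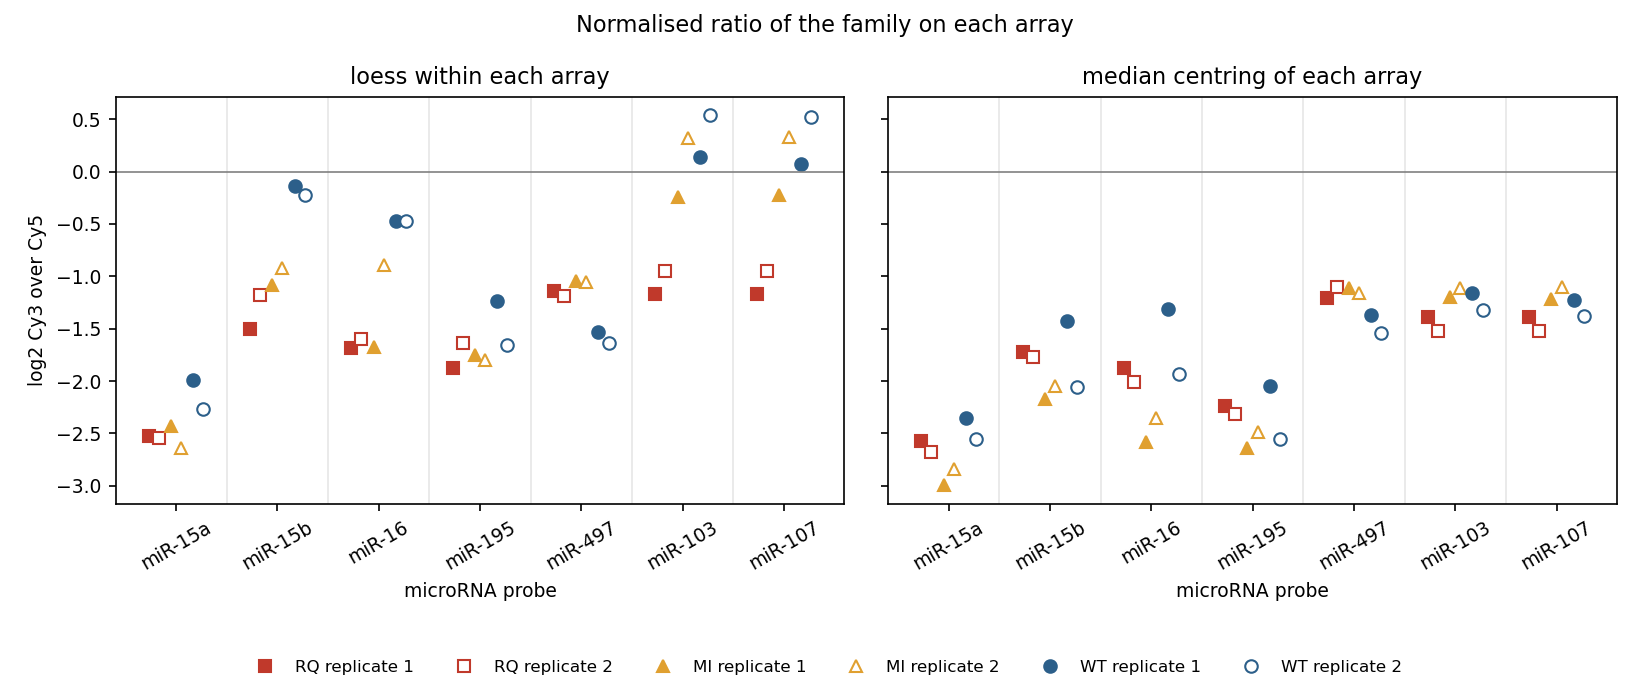
Log2 ratio of Cy3 over Cy5 of the 7 microRNAs on each of the 6 arrays after loess within the array (left) and after median centring (right). With loess, miR-103 lies at -1.17 and -0.95 on the RQ arrays and at 0.14 and 0.54 on the WT arrays. With median centring the 3 groups lie close together for miR-103 and miR-107, with both RQ arrays still the lowest.

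The second comparison asked the same of M1652I. After loess, 2 of the 7 members were called in MI minus WT, miR-15b lower and miR-497 higher, against 15.6% of all tested probes, with 6.46% lower and 9.18% higher. The ratios of 4 members were lower on both MI arrays than on both WT arrays, as in 22.8% of tested probes, and those of miR-497 were higher, as in 45.6%. The loess ratio of miR-15b was -1.08 and -0.92 in MI and -0.14 and -0.22 in WT, a change of -0.82 ± 0.15 with an adjusted p of 0.0178. Of the 5 scalings, 2 called it (both loess fits), and it was -0.36 with median centring (adjusted p 0.210), -0.63 on Cy3 alone (0.109) and -0.45 with the processed signals (0.2901). The loess call was lost without WT replicate 1 or without either MI array, with adjusted p of 0.0658, 0.135 and 0.0693. miR-497 had -1.05 and -1.06 in MI and -1.53 and -1.63 in WT, a change of 0.53 ± 0.10 with an adjusted p of 0.0271, and loess alone of the 5 scalings called it. The median change of the 7 members was -0.33, against 0.11 over all probes.

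miR-16 had a negative change in MI minus WT of similar size under each of the 5 scalings. Its loess ratios of -1.68 and -0.89 in MI lay below the -0.47 of both WT arrays, and the change of -0.81 ± 0.25 did not pass (adjusted p 0.0779). With median centring the ratios were -2.58 and -2.36 in MI and -1.32 and -1.93 in WT, and the change of -0.84 ± 0.20 passed with an adjusted p of 0.0296. On Cy3 alone it was -1.12 ± 0.22 with an adjusted p of 0.0288. Relative to the median of all probes, the miR-16 change in MI ranged from -1.12 to -0.78 over the 5 scalings, of which 2 called it (median centring and Cy3 alone). With median centring 12.9% of all probes were called, and on Cy3 alone 8.5% were called lower.

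miR-15a had loess ratios of -2.43 and -2.64 in MI and -1.99 and -2.26 in WT and a change of -0.41 ± 0.14 (adjusted p 0.0953). Of the 5 scalings, 3 called it lower in MI, among them median centring at -0.46 ± 0.12 (adjusted p 0.0418), and relative to all probes its change ranged from -1.02 to -0.50. miR-195 had -1.75 and -1.80 in MI and -1.23 and -1.66 in WT, and its change of -0.33 ± 0.17 (adjusted p 0.224) was called under none of the 5. With the offset of the background correction at 16 in place of 50, 4 of the 7 members and 65 of all tested probes were called in MI minus WT, against 2 and 46 with the offset of 50. With the offset of 50, leaving out MI replicate 1 ended both member calls and left few calls over all tested probes.

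For miR-103 and miR-107 no difference between MI and WT was called under any of the 5 scalings. Their loess ratios in MI were -0.24 and 0.32 for miR-103 and -0.22 and 0.33 for miR-107, which overlapped with the WT values above. The MI minus WT change was -0.30 for miR-103, with a 95% confidence interval from -0.87 to 0.27, and -0.24 for miR-107, with an interval from -0.82 to 0.34. These loess intervals still hold a change as large as the -0.82 called for miR-15b, but not the 0.53 called for miR-497. On Cy3 alone the intervals were narrower, from -0.43 to 0.098 for miR-103 and from -0.39 to 0.13 for miR-107. They do not hold the -1.12 called for miR-16 under that scaling. With median centring the sign of the miR-103 and miR-107 changes was the opposite, at 0.089 and 0.14. Over all probes, 58.7% of the calls were higher in MI with loess and 44.7% with median centring, 40.0% with loess on the bright probes, 28.6% on Cy3 alone and 28.1% with the processed signals.

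The direct comparison of both mutants lies within one row of the slide. With scalings made within each array, its change takes no WT value, while the spread behind its SE and p is shared over all 6 arrays. On Cy3 alone, the quantile normalisation was made over all 6 arrays, so WT arrays entered the scaled values too. After loess, miR-103 and miR-107 were the 2 of 7 members called in RQ minus MI, both lower in RQ, against 10.9% of tested probes called, 7.82% lower and 3.06% higher. The ratios of 4 members were lower on both RQ arrays than on both MI arrays and those of none were higher, against 44.9% and 20.1% of tested probes. The change was -1.10 ± 0.23 for miR-103 and -1.11 ± 0.24 for miR-107, each with an adjusted p of 0.0370, and the RQ and MI ratios of both did not overlap. On Cy3 alone both were again called, at -0.65 ± 0.10 for miR-103 (adjusted p 0.0221) and -0.66 ± 0.10 for miR-107 (adjusted p 0.0221), where 7.14% of probes were called lower. With median centring the changes were -0.30 ± 0.11 for each and 0 of 7 members and 10.5% of probes were called by limma, with 4 members at an unadjusted p below 0.05, of which miR-103 and miR-107 were lower in RQ. Relative to the median of all probes, the change ranged over the 5 scalings from -1.05 to -0.36 for either of them. Leaving out any one of the 4 RQ and MI arrays ended both loess calls. Of the 5 scalings, 2 called both microRNAs, and both calls were also lost with outlier spots kept, with outlier spots in the loess curve and with the control probes in the curve.

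The members with the family seed gave no call in RQ minus MI under any of the 5 scalings. The loess change was -0.34 for miR-15b (95% confidence interval from -0.69 to 0.021), -0.36 for miR-16 (from -0.97 to 0.25), 0.0019 for miR-15a (from -0.34 to 0.34), 0.016 for miR-195 (from -0.41 to 0.44) and -0.11 for miR-497 (from -0.37 to 0.15). With median centring the sign of miR-15b and miR-16 was the opposite, at 0.36 ± 0.19 and 0.53 ± 0.20. Of all probes called, 28.1% were higher in RQ with loess, 61.3% with median centring, 40.0% with loess on the bright probes, 41.7% on Cy3 alone and 40.7% with the processed signals. RQ minus WT and MI minus WT share the WT arrays, so the values of a member in both are not independent.

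**Figure D3:**
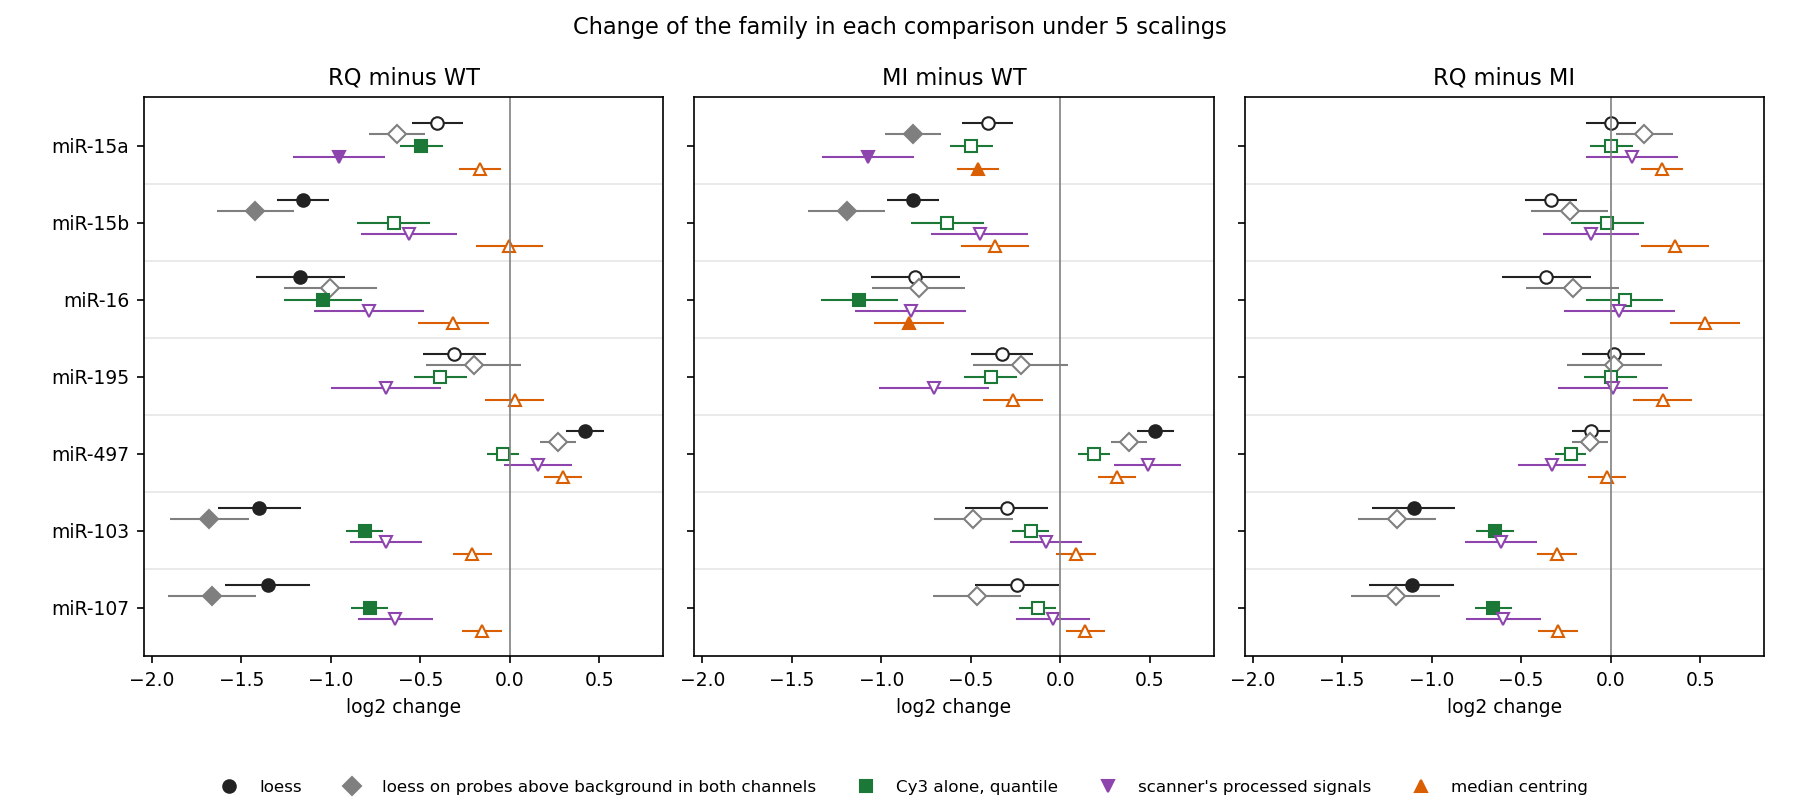
Change of each member in RQ minus WT, MI minus WT and RQ minus MI (log2, bars are 1 SE from limma) under 5 scalings, with filled symbols where the adjusted p is below 0.05 and open symbols where it is not. The RQ changes of miR-103 and miR-107 run from -1.68 and -1.67 with loess on the bright probes to -0.21 and -0.16 with median centring, while the MI change of miR-16 stays between -1.12 and -0.79.

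A ratio of 2 probes on the same array in the same dye is not moved by 1 constant factor per array, although it is moved by scalings that depend on brightness, such as loess and quantile normalisation. On the unscaled signal, the members were also set against miR-103 within each array. Such a ratio is not a ratio of amounts, since probes differ in brightness, and only its difference between groups is read. For miR-16 over miR-103 the net Cy3 ratio was 1.22 and 1.19 on RQ arrays, 0.658 and 0.691 on MI arrays, and 1.59 and 1.14 on WT arrays. Both MI arrays lay below the other 4, and the geometric mean in MI was 0.501 times that in WT and the one in RQ 1.79 times that in MI. In Cy5 the same ratio stayed between 1.67 and 1.76 on all 6 arrays. The unscaled RQ over MI signal was 1.55 for miR-16 and 0.868 for miR-103, against a median of 1.31 over the 227 probes. The higher ratio in RQ than in MI thus went with a miR-103 signal below that median. As a log2 difference, the MI minus WT value of miR-16 over miR-103 was -0.996 on unscaled Cy3 and from -0.96 to -0.31 under the 5 scalings, and the RQ minus MI value was 0.84 and from 0.66 to 0.98.

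For miR-15b, miR-15a and miR-195 the MI arrays were again the lowest. Over miR-103, miR-15b was 0.811 and 0.816 in RQ, 0.472 and 0.512 in MI, and 0.916 and 0.621 in WT, so that MI was 0.651 times WT and RQ was 1.66 times MI. For miR-15a the ratio was 0.192 and 0.207 in RQ, 0.131 and 0.124 in MI, and 0.207 and 0.172 in WT, with MI at 0.676 times WT and RQ at 1.56 times MI. miR-195 over miR-103 was 0.406 and 0.420 in RQ, 0.219 and 0.257 in MI, and 0.368 and 0.288 in WT. For miR-195 alone of these 4, both RQ arrays also lay above both WT arrays, at 1.27 times WT. The unscaled RQ over WT signal was 1.01 for miR-195 itself and 0.814 for miR-103, so the higher ratio went with a lower miR-103 signal. With 2 arrays against 2, an exact permutation test cannot go below a two-sided p of 0.333, so these ratios carry no test, and the negative control signal was not subtracted from them. Under the 5 scalings the log2 difference of RQ minus MI relative to miR-103 stayed above 0 for all 3, from 0.50 to 0.97 for miR-15b, from 0.59 to 1.38 for miR-15a and from 0.59 to 1.21 for miR-195. That of MI minus WT stayed below 0 for miR-15b (-0.71 to -0.37) and miR-15a (-0.99 to -0.11) but changed sign for miR-195 (-0.62 to 0.26).

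miR-107 over miR-103 was 0.984 and 0.985 in RQ, 0.953 and 1.00 in MI, and 0.987 and 0.979 in WT, and groups overlapped. Within the family seed, miR-16 over miR-195, the pair with the substitutions given above, was 3.00 and 2.84 in RQ, 3.01 and 2.68 in MI, and 4.32 and 3.96 in WT. Here RQ and MI overlapped and both lay below WT, at 0.707 and 0.688 times the WT ratio. The ratio of miR-15b over miR-16, which share the Smc4 locus, was 0.665 and 0.684 in RQ, 0.717 and 0.741 in MI, and 0.578 and 0.545 in WT, and was higher in both mutants, at 1.20 times WT in RQ and 1.30 times WT in MI on the unscaled signal. Under the 5 scalings the log2 difference of miR-15b over miR-16 changed sign, from -0.42 to 0.40 in RQ minus WT and from -0.40 to 0.49 in MI minus WT, while that of miR-16 over miR-195 stayed below 0, from -0.86 to -0.095 and from -0.73 to -0.13. The Cy5 ratios of miR-15b over miR-16 on the same arrays ran from 0.542 to 0.629 and those of miR-16 over miR-195 from 2.29 to 2.73.

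**Figure D4:**
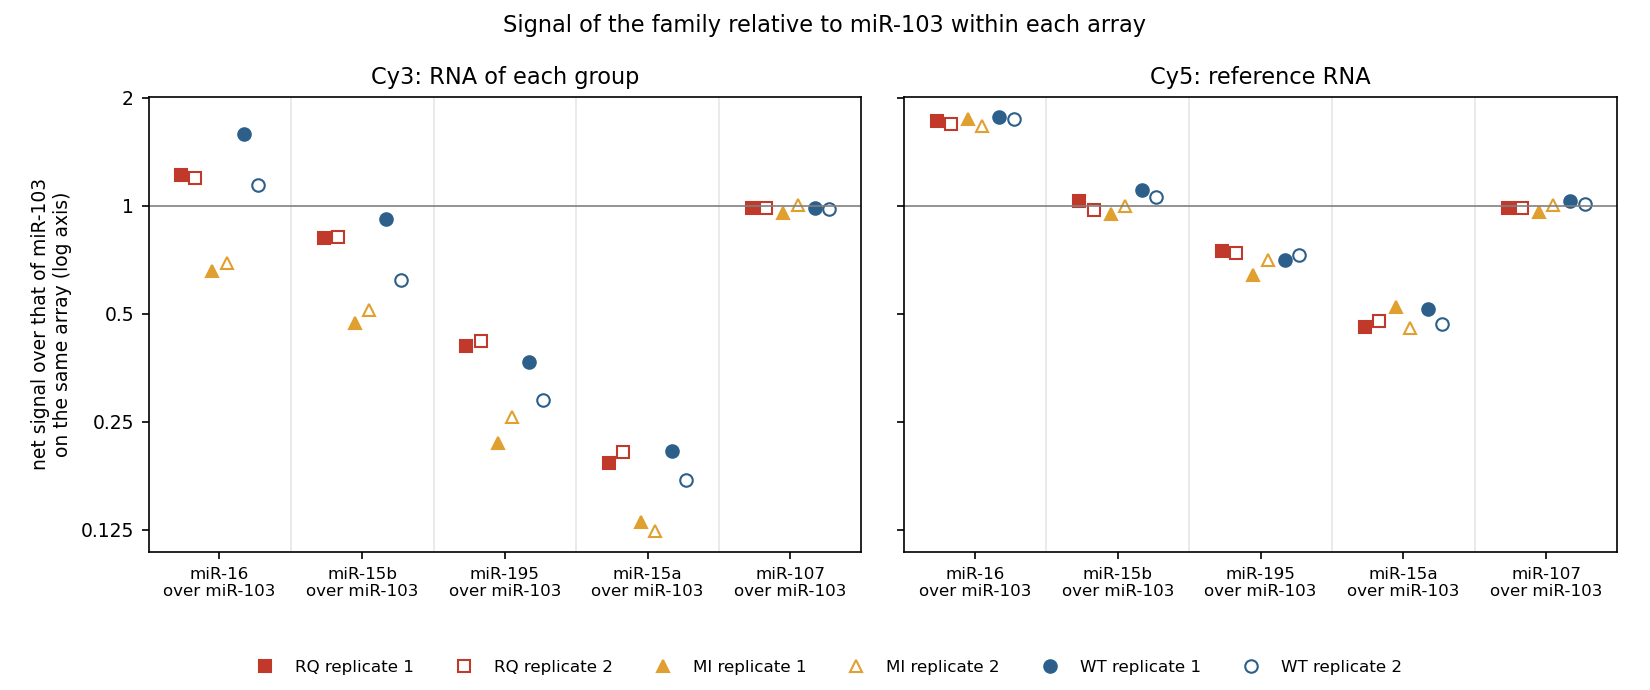
Net signal of miR-16, miR-15b, miR-195, miR-15a and miR-107 divided by that of miR-103 on the same array (log axis), in Cy3 (left) and in the Cy5 reference (right), with 1 point per array. In Cy3 the MI arrays are lowest for the first 4 ratios, as for miR-16 at 0.658 and 0.691, while miR-107 over miR-103 stays between 0.953 and 1.00 on all arrays.

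Of the 14 names looked for as further relatives (miR-424, miR-322, miR-503, miR-195b and star forms), 2 had probes, and they lie side by side on chromosome X. The probe named miR-424 carries the complement of the mouse microRNA that RefSeq names miR-322-5p, which has the family seed, and miR-503 has a seed that differs from it at the last base.
miR-424 (miR-322-5p): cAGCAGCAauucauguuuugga
miR-503: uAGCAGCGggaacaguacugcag
The net Cy3 signal of miR-424 was 157 and 172 in RQ, 114 and 130.5 in MI, and 181.5 and 135 in WT, and it was called in none of the 3 comparisons under any of the 5 scalings. Its loess change was -0.26 ± 0.14 in RQ minus WT and -0.11 ± 0.14 in MI minus WT. miR-503 had 196 and 183 in RQ, 115 and 132.5 in MI, and 121 and 117.5 in WT. The RQ arrays were the highest for miR-503, and its RQ minus WT change was 0.42 ± 0.14 with loess (adjusted p 0.0798) and 0.39 ± 0.11 with median centring (adjusted p 0.0410), the one scaling of 5 that called it. These signals were 3.63 and 3.00 times the median negative control in RQ, 3.04 and 3.12 times in MI, and 3.52 and 4.17 times in WT.

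Across the 6 arrays the loess ratios of the members went together to different degrees. miR-103 and miR-107 had a Pearson r of 0.999, miR-15b and miR-16 one of 0.933, and miR-15a and miR-195 one of 0.870. The r of miR-195 was 0.34 with miR-103 and 0.31 with miR-107. miR-497 had a negative r with each other member, from -0.86 with miR-15b to -0.48 with miR-107. With median centring its r ran from -0.66 with miR-15a to 0.052 with miR-107. With median centring, miR-15a and miR-16 had an r of 0.982, miR-15b and miR-195 one of 0.994 and miR-103 and miR-107 one of 0.984, while miR-16 and miR-103 had an r of 0.847 with loess and of -0.12 with median centring. Among the 287 other tested probes, the ratio of miR-103 was most like that of miR-30c (r = 0.990), followed by miR-294 (0.978), a stem cell microRNA, and let-7f (0.973), and miR-107 had the same 3. The pattern of miR-15b was most like miR-17-5p (0.994), of the miR-17-92 cluster, then miR-23a (0.976) and miR-23b (0.960). miR-16 was most like miR-23b (0.960), miR-29a (0.944) and miR-21 (0.939). For miR-15a the closest were miR-362 (0.976), miR-467* (0.942) and miR-20a (0.932), for miR-195 miR-369-5p (0.939), miR-20a (0.937) and miR-379 (0.910), and for miR-497 miR-677 (0.985), miR-7 (0.978) and miR-218 (0.959). These correlations are over 6 arrays that share the reference RNA, the slide and, with loess, the shape of the curve at a given brightness, so they are a description. Of the tested probes, 93.9% were dimmer than miR-16, 91.8% than miR-103 and 40.1% than miR-497.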

How the data were processed

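Mature microRNAs of RQ, MI and WT embryoid bodies (2 arrays each) were measured on 2-colour arrays, scanned and quantified by Agilent Feature Extraction (version 9.5.1.1 in the file headers). Per the labels' protocols, T4 RNA ligase added the dyes to the 3′ ends of total RNA. The deposited files give each spot's mean and background intensity per dye, per the file headers, a processed intensity that the scanner software had corrected and dye-normalised, and a log10 ratio of processed Cy5 over Cy3; the deposited series table equalled minus that log10 ratio, with a largest difference of 0. Which dye normalization it applied is not given in the sources used.

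From the intensity values, log2 ratios of Cy3 over Cy5 were computed with limma 3.58.1 under R 4.3.3: normexp background correction (offset 50), loess within array weighted on mouse microRNA spots, outlier spots removed (60 to 99 per array), and spots averaged per probe. Probes entered the test if more than 0.5 of their spots were above background in either dye on at least 2 arrays. The model lmFit with eBayes used all 6 arrays. The fit was tested on data simulated from normalised ratios, so background correction and scaling were not part of that test. The number of arrays limits the precision. Alternatives were median centring, loess on bright probes, Cy3 alone with quantile normalisation, processed signals, offset 16, no filter, outliers kept, 2 groups alone, replicate number as a block, each array left out, and, chosen after seeing the data, outliers or control probes in the loess curve. Named microRNAs were the 7 members, relatives by seed, the 3 probes most like each member, and probes within 2 bases. Members and lists were chosen with earlier results of these data known. The markers were read as summed net Cy3 signal of lists; blood, neural and liver lists summed to 1183 to 1235, 1508 to 1618 and 551.5 to 567 units in RQ, 972 to 1101, 961 to 1120 and 301 to 361 in MI, and 999 to 1043, 1001 to 1037 and 297 to 311 in WT, and the endothelial marker was not among the probes analysed here.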

Additional observations from a re-analysis of the deposited data

Results flagged for a closer look

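The contrast of both mutants passed the test for miR-103 and miR-107 with loess. The RQ minus MI change after loess was -1.10 for miR-103 and -1.11 for miR-107 (limma, adjusted p 0.0370 for each). For both microRNAs, the 2 RQ arrays were lower than the 2 MI arrays. Of 5 scalings, 2 called both (loess and Cy3 alone). The calls were lost with median centring, with loess on the bright probes, with the processed signals, with outlier spots kept, with outlier spots or control probes in the loess curve, and when any one of these 4 arrays was left out.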

How the results depend on the processing

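Over 17 alternative settings, 459 single changes of the 7 members and both relatives were recomputed, of which 358 kept their direction and side of the threshold, 64 lost the call, 13 gained one and 24 changed sign. Of the sign changes, 1 concerned a called change: miR-497 in RQ minus WT, at -0.038 on Cy3 alone. The other sign changes with median centring were miR-195 in RQ minus WT (0.026), miR-103 and miR-107 in MI minus WT (0.089 and 0.14), and miR-15b, miR-16 and miR-424 in RQ minus MI (0.36, 0.53 and 0.13). On Cy3 alone they were miR-16 and miR-195 in RQ minus MI (0.078 and -1.3e-05), and with processed signals miR-503 in MI minus WT (-0.069) and miR-16 in RQ minus MI (0.049). For RQ minus MI, miR-15a and miR-195 took -0.076 and -0.093 both with outlier spots kept and with them in the loess curve, and -0.020 and -0.00080 with the further control probes in the curve. With each array left out, the sign of miR-107 (from -0.52 to 0.034) and miR-424 (-0.25 to 0.039) changed in MI minus WT, and in RQ minus MI that of miR-15a (-0.10 to 0.11), miR-195 (-0.10 to 0.14) and miR-16 (-0.75 to 0.033).

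In RQ minus WT the number of members called was 5 with loess (63 of all tested probes), 0 with median centring (67), 3 with loess on the bright probes (43) and 1 with processed signals (62). In MI minus WT it was 2, and 1 on Cy3 alone (35 of all probes), 1 with processed signals (32), 4 with offset 16 (65) and 1 with the 2 groups alone (27). In RQ minus MI it was 2, and 0 with median centring, loess on the bright probes, processed signals, outlier spots kept, outlier spots in the curve or further control probes in the curve, where 2 to 4 members had an unadjusted p below 0.05. Over all probes, RQ minus MI gave 32 calls, and 10 with loess on the bright probes, 14 with outlier spots kept, 17 with them in the curve and 19 with the control probes in the curve, and MI minus WT gave 46, and 27 with the 2 groups alone. Leaving out each array gave 0 to 4 members and 5 to 60 of all probes in RQ minus WT, 0 to 2 and 6 to 63 in MI minus WT, and 0 to 2 and 0 to 48 in RQ minus MI; the lone array of a group was taken to vary like the others, and the cause of these changes was not tested. With the replicate block, members called were 4, 2 and 2 and all calls 59, 39 and 38 in RQ minus WT, MI minus WT and RQ minus MI, with miR-497 in RQ minus WT (adjusted p 0.0621) the one member call lost. Samples with the same replicate number did not clearly deviate together (r over the tested probes of 0.18 for MI and WT, 0.12 for RQ and WT and 0.041 for RQ and MI), so the numbers are not taken to pair the samples.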
